A study of Mus musculus with 346 samples.

Results

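Pre-pubertal and pubertal mammary cells were compared gene class by gene class across the whole transcriptome. The members were all cells whose titles and stage labels put them at pre-puberty or at puberty, and they were kept when at least 100000 reads fell on the analysed genes and at least 1500 of these genes were detected. This left 235 of 280 cells, 116 of 144 at pre-puberty and 119 of 136 at puberty, out of 346 cells in the series. The pre-pubertal cells came from FVB/NJ females aged 2 weeks and the pubertal cells from FVB/NJ females aged 4.7 to 4.9 weeks, with no treatment at either stage. Per the labels both are total epithelium. Per the study's methods, glands of several mice were pooled for each sort, cells carrying Ter119, CD31 or CD45 (red cell, endothelial and leukocyte surface proteins) were gated out, and single cells were caught on Fluidigm C1 chips and sequenced from Nextera XT libraries. No label ties a cell to a mouse, so each stage counted as 1 sample. No difference given here therefore has a replicate check, no test was made, and the cells are not replicates.

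The mammary epithelium has an inner layer of luminal cells, which make milk and carry tight junctions, and an outer layer of basal cells, which contract. Before puberty the gland is a small ductal tree, and ovarian hormones then drive elongation and branching. Between the ducts lie fat, fibroblasts, vessels and nerves, and the nerves hold Schwann cells, the glia that ensheathe axons.

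The reads of a gene were added up over the kept cells of each stage and scaled to counts per 1000000 reads (CPM). Of 25137 genes, 9867 reached 10 CPM at either stage. A gene was called higher or lower at pre-puberty where the log2 ratio of pre-puberty over puberty, taken after adding 5 CPM to both values, was at least 1 in size. By this rule 2113 genes (21.4%) were higher and 2368 (24%) were lower, and the median log2 ratio of all genes tested was -0.12. These shares and this median are the background for every class below. The 5 added CPM understate the differences of low genes. The protocol has no molecular identifiers, so intervals cover counting error only.

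The label of epithelium was checked first, since the classes below depend on it. Pubertal cells carried it: a median of 8 of 14 pan-epithelial markers was detected per cell after each cell was thinned to 100000 reads, and Epcam, an adhesion protein of epithelia, was detected in 96.6% of cells. The pre-pubertal cells went against it. Their median was 0 of 14 pan-epithelial markers, Epcam was detected in 14.7% of cells and Krt18, a luminal keratin, in 8.62%, with 89.8% of the Krt18 reads in 1 cell. A median of 17 of 24 Schwann cell markers was detected in them, against 2 of 24 at puberty. The summed Schwann markers lay between 615 and 81407 CPM in pre-pubertal cells (median 18630), all 116 above the pubertal median of 156.2 CPM. The basal list had a median of 2 of 15 markers detected at each stage, but the stages differed above the median. Its upper quartile was 5 markers and 779 CPM at pre-puberty, and 8 markers and 3591 CPM at puberty, where the cells were mixed. The median cell had 4 of 14 fibroblast markers at pre-puberty and 1 at puberty, with sums of 6268 and 18.9 CPM. By marker, 4 of the 13 fibroblast markers tested were higher at pre-puberty and 5 lower. For the 7 pericyte markers the medians were 1 and 0 detected, and 287 and 1.41 CPM. At pre-puberty the median cell had none of the endothelial, immune, neuron, melanocyte, adipocyte or muscle markers. The stage and the kind of cell therefore cannot be told apart in these data, and the groups are called pre-pubertal and pubertal cells by their labels.

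Some facts of the libraries moved with the stage. Kept pre-pubertal cells had a median of 296546 reads and pubertal cells 573997. After thinning, the medians were 2861.5 and 2695 detected genes. Mitochondrial genes took a median of 3.47% of reads at pre-puberty and 10.4% at puberty. The pre-pubertal cells also fell into 2 blocks by cell number: 12 kept cells up to number 37 (median 936780 reads) and 104 from number 38 on (median 283356 reads). In all, 11 pre-pubertal and 9 pubertal cells stood apart by markers unlike most cells of their stage. The cutoffs were set after the values were seen. They were at least 9 of 14 fibroblast markers at either stage, 6 of 14 pan-epithelial markers at pre-puberty or 10 of 24 Schwann markers at puberty. The pre-pubertal cells set apart thus include 6 with the epithelial markers that their label names. The pubertal cells with at least 10 of 24 Schwann markers numbered 2. The part of these features in the differences was not tested, and leaving out the cells that stood apart left the direction of every class median of at least 0.5 in size as it was.

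**Figure D1:**
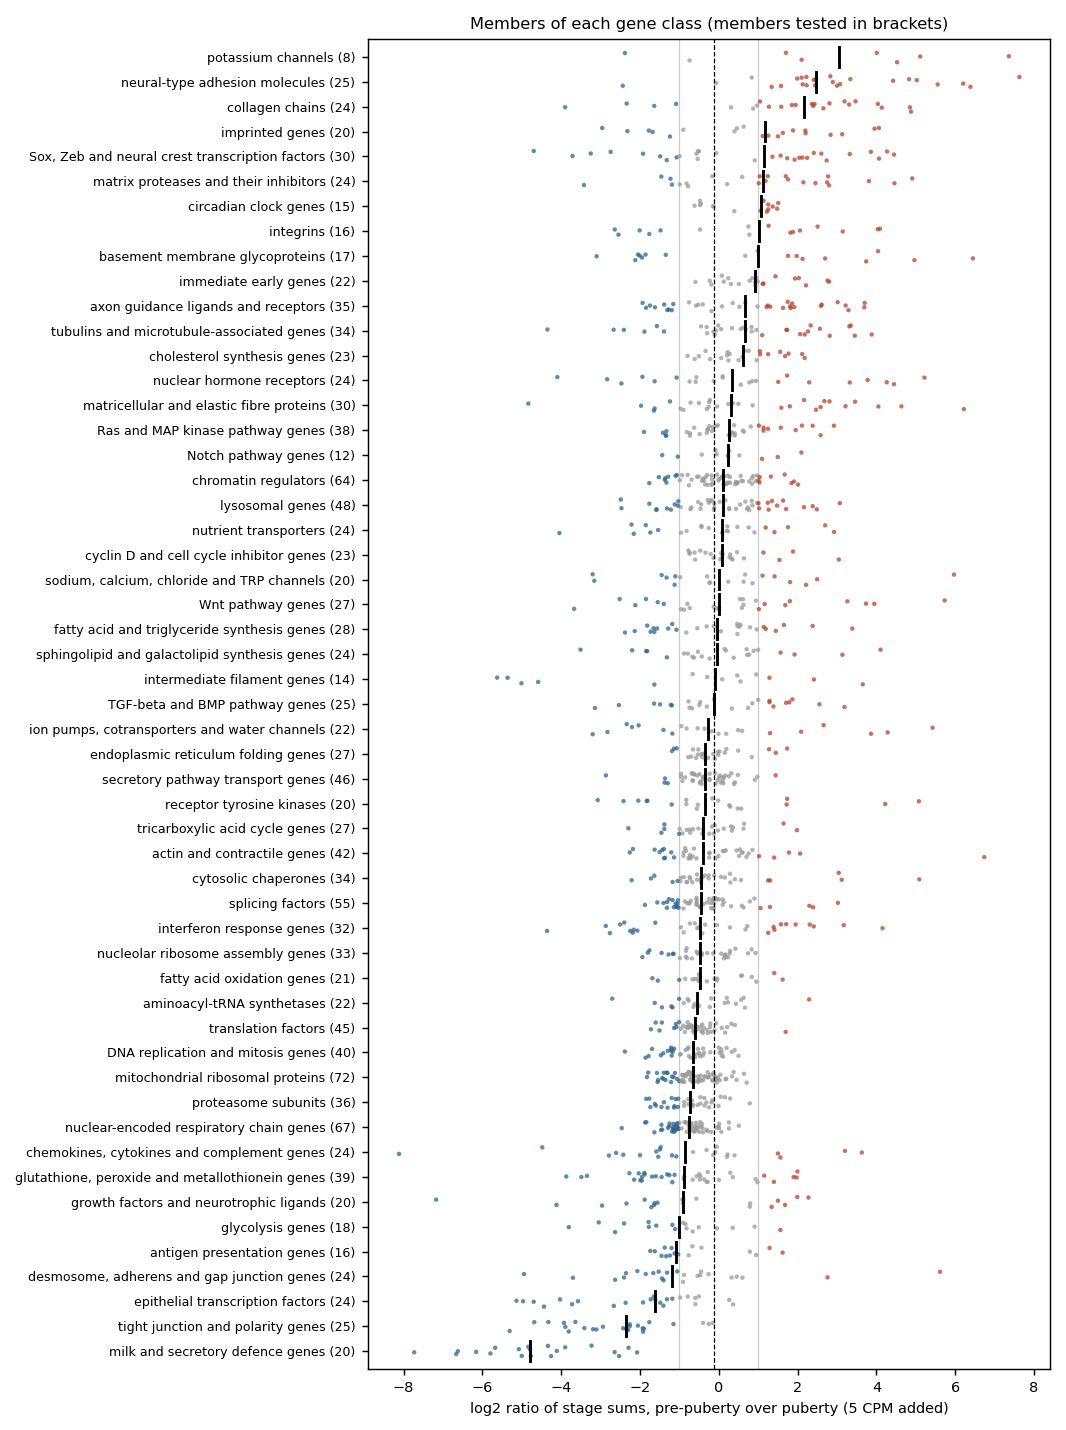
Each point is the log2 ratio of the stage sums (pre-puberty over puberty, 5 CPM added) of 1 member of a gene class, red at 1 or more, blue at -1 or less and grey between; black bars are class medians and the dashed line is the median of all 9867 genes tested (-0.12). Classes run from milk and secretory defence genes (median -4.78) at the bottom to potassium channels (3.06) at the top, and respiratory chain, proteasome and mitochondrial ribosome members lie close together below 0.

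Matrix and adhesion genes stood apart in both directions. Over the 8 classes of matrix and adhesion genes, 83 of 185 members tested were higher (44.9%) and 61 lower (33.0%). Neural-type adhesion molecules, which hold neurons and glia together, had the highest median of the 8: 22 of 25 were higher and 1 lower, with a median log2 ratio of 2.47. Summed over the class, pre-pubertal cells lay between 139 and 18864 CPM (median 5145) and pubertal cells between 4.97 and 2348 CPM (median 287). Of the 116 pre-pubertal cells, 103 lay above the highest pubertal cell. Chl1 (Entrez 12661; chromosome 6, 103510584 to 103733038 in GRCm38), a close homologue of the axonal adhesion protein L1, had 679.6 CPM at pre-puberty (95% Poisson interval 671.7 to 687.7) and 3.19 CPM at puberty (2.78 to 3.64). Single pre-pubertal cells ran from 0 to 3942 CPM with a median of 436, whereas the pubertal median was 0 and the highest 196, so the groups overlapped only in their lower part. Cadm2, a synaptic adhesion protein, was found in 75.9% of pre-pubertal and 2.52% of pubertal cells after thinning. Cdh19, a cadherin of the Schwann lineage that is itself on the Schwann list, had 1017 CPM against 0.161. Without the 3 markers the class median was 2.43.

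Collagen chains, the fibrous proteins of the matrix, were higher for 17 of 24 members and lower for 4, with a median of 2.16. Per cell the class took 1920 to 145314 CPM at pre-puberty (median 11323) and 1.76 to 23384 CPM at puberty (median 1203). All 116 pre-pubertal cells lay above the pubertal median, but only 5 above the highest pubertal cell. Col5a3, a minor fibrillar chain, had 183 CPM against 5.70 and Col27a1 179 against 1.26. Col28a1, a collagen known from peripheral nerve, had 140 CPM at pre-puberty and 2 reads in all at puberty, a ratio of 4801 with a counting interval of 1328 to 39654. On the other side stood Col4a5, a basement membrane chain, with 16.7 CPM at pre-puberty and 105 at puberty. Fibroblast markers among the collagens were in the same cells: Col3a1 was detected in 100% of pre-pubertal cells, while Dcn, a proteoglycan typical of fibroblasts, was detected in 11.2%.

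The basement membrane split between the stages. Of 17 glycoproteins tested, 8 were higher and 7 lower at pre-puberty. Nid2, a nidogen that links laminin to collagen IV, had 785.6 CPM against 4.05; Lama2, the laminin chain of nerve and muscle, had 451 against 9.59; Hspg2, the proteoglycan perlecan, had 234 against 9.49. Matrix proteases and their inhibitors were higher for 14 of the 24 members tested, out of 38 listed (median 1.11). Over the 13 alternatives of processing given below that median lay between 0.04 and 2.05. The class was led by Adam19 (172 CPM against 0.892), Adam23 (902 against 59.7) and the inhibitor Timp3 (2776 against 394). Plaur, the urokinase receptor, went the other way with 14.7 CPM at pre-puberty and 206 at puberty. Matricellular and elastic fibre proteins had 12 of 30 higher and a median of 0.31, with Matn2 (2553 CPM against 97.9) and Tnc (378 against 0.146) far apart. Against the pubertal cells with more basal markers the class median was 1.16, and against those with more luminal markers 1.21. For integrins, the receptors for this matrix, 8 of 16 were higher and 5 lower (31.3%), with a median of 1.02 that was 0.28 in the 12 pre-pubertal cells up to number 37. Itgb1, the beta chain shared by most of them, had 1036 CPM against 429, and Itga4 and Itga1 had 102 against 1.29 and 140 against 3.84. Itga3, a laminin-binding chain named here after its values were seen, was among the lower members, with 3.71 CPM against 30.04.

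Junction genes stood the other way. Of 25 tight junction and polarity genes, which seal the space between epithelial cells, 22 were lower at pre-puberty and none was higher, with a median of -2.35. The class sum per cell ran from 0 to 2094 CPM at pre-puberty (median 336) and from 5.58 to 8782 CPM at puberty (median 1968), and 1 pre-pubertal cell lay above the pubertal median. Cldn7 (Entrez 53624; chromosome 11, 69964779 to 69967886), a claudin, had 0.123 CPM at pre-puberty and 126 CPM at puberty, where the median cell had 49.5 CPM and the highest 1802. It was detected in 1.72% of pre-pubertal and 72.3% of pubertal cells. Cldn4 had 1.20 against 241 CPM and Cldn3 1.03 against 116. Desmosome, adherens and gap junction genes had 13 of 24 lower and 2 higher, with a median of -1.18. Dsg2 (39.5 CPM against 573) and Dsp (88.8 against 474) build desmosomes, the rivets between epithelial cells. Gjc3, a connexin of myelinating glia, was 1 of the 2 higher members, at 240.2 CPM with no read at puberty, which puts it at least 5478-fold higher against a limit of 3 reads over the stage.

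**Figure D2:**
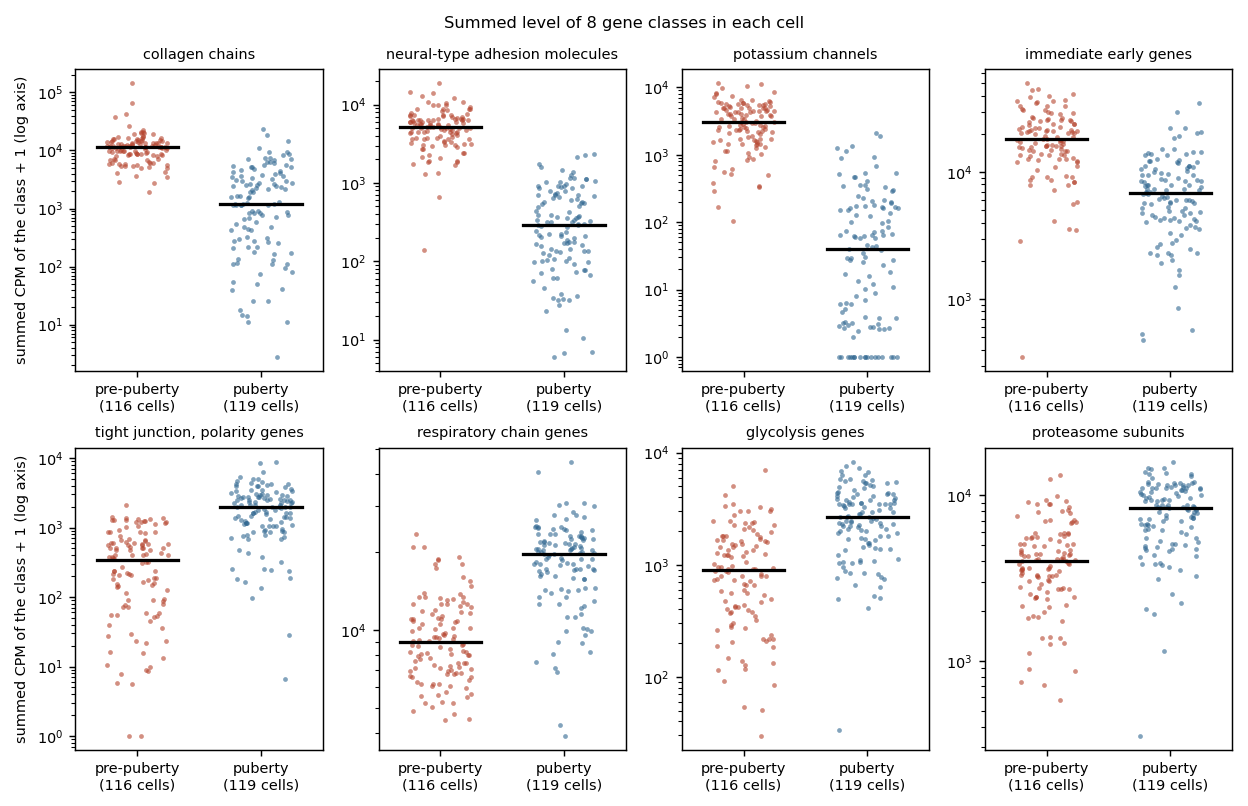
Summed CPM of 8 gene classes in each kept cell (log axis, 1 CPM added for drawing); each point is a cell, bars are medians over 116 pre-pubertal and 119 pubertal cells. For neural-type adhesion molecules 103 of the 116 pre-pubertal cells lie above the highest pubertal cell and for potassium channels 79. The ranges of respiratory chain, glycolysis and proteasome genes overlap with lower medians at pre-puberty, where 3, 11 and 10 cells lie above the pubertal medians.

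Ion channels and transporters differed by family rather than as a whole. Of 8 potassium channel genes tested, out of 38 listed, 6 were higher at pre-puberty and 1 lower, with a median of 3.06. That median rests on the members that passed the filter: with no filter on low genes, the 37 members with a value had a median of 0.04, and with equal weight for each cell the median was 0.82. Kcna1 (Entrez 16485; chromosome 6, 126636463 to 126645801), a voltage-gated channel of myelinated nerve that is also on the Schwann list, had 2598 CPM (2582 to 2614) against 10.8 (10.1 to 11.6), with pre-pubertal cells from 0 to 10738 CPM (median 2189). Kcna2 had 469 CPM against 8.70, with 84.9% of the pubertal reads in 1 cell, and Kcna6 had 110 CPM against a single read, a ratio of 7546 with a counting interval of 1354 to 298116. Without Kcna1 the median of the other 7 members tested was 2.10. Per base of gene, Kcna1 stood at 290 RPKM (reads per 1000 bases of gene length per 1000000 reads), above Kcna2 at 40.5. Sodium, calcium, chloride and TRP channels had 6 higher and 6 lower of 20 and a median of 0.01, yet their sum was dominated by Scn7a, a sodium-level sensor of glia and other non-neuronal cells, at 6225 CPM against 94.4. Among pumps and water channels (6 higher and 7 lower of 22), the regulators of the sodium pump split: Fxyd1 had 406 CPM against 16.1 and Fxyd3 54.7 against 269.6. Nutrient transporters showed no lean, with 5 higher and 6 lower of 24.

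Signalling classes leaned higher at pre-puberty, with 86 of 253 members higher (34.0%) and 54 lower (21.3%). Immediate early genes, which are switched on within minutes of a stimulus, had 8 of 22 higher and none lower (median 0.93). Egr1, a zinc finger factor, had 4644 CPM against 662 and was detected in 99.1% and 79.8% of cells. Single cells lay between 8.13 and 15335 CPM at pre-puberty (median 4151) and between 0 and 4584 CPM at puberty (median 157.3), so the stages overlapped. Zfp36, which destabilises mRNAs, had 593 CPM against 141, and Egr2, also a Schwann marker for its part in myelination, 299 against 60.5. Circadian clock genes had 8 of 15 higher and none lower, with a median of 1.06. Bhlhe40, a repressor within the clock, had 333 CPM against 116. In the 12 pre-pubertal cells up to number 37 alone the median of the clock class was -0.49, the opposite direction. Imprinted genes, expressed from 1 parental allele and known for growth control in early life, had 11 of 20 higher and 5 lower (median 1.19). Meg3 (Entrez 17263; chromosome 12, 109540996 to 109571729), a maternally expressed noncoding RNA, had 309 CPM against 30.9, and Sgce 279.8 against 12.0. Kcnq1ot1, an antisense RNA of the Kcnq1 locus, had 92.8 against 308; the library kit does not mark strand, so its reads cannot be told from those of overlapping genes.

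Axon guidance ligands and receptors had 16 of 35 higher and 9 lower (median 0.67). The secreted semaphorin Sema3b had 170.0 CPM against 8.43 and the membrane semaphorin Sema6d 308 against 27.0, while Robo1, a receptor for Slit proteins, had 45.7 against 108. The Wnt, Notch, transforming growth factor and receptor kinase classes had members that stood far apart in both directions. In the Wnt class (8 higher and 6 lower of 27, median 0.01), the antagonists Sfrp1 (683 CPM against 46.6) and Nkd2 (418 against 2.95) and the receptor Fzd1 (225 against 19.0) stood on the side of pre-puberty. The ligand Wnt5a stood on the other, with 35.6 CPM against 512. In the transforming growth factor class (8 and 6 of 25), the co-receptor Tgfbr3 had 5245 CPM against 571, and Fst, which binds activin, 181 against 421. Among Notch genes (3 and 2 of 12), the target Hes1 had 419.9 CPM against 145.5 and the ligand Jag1 602 against 1243. Receptor tyrosine kinases had 4 higher and 6 lower of 20, with the neurotrophin receptor Ntrk3 at 245 CPM against 2.40, Igf1r at 318 against 91.9, and Fgfr2, a receptor of mammary epithelium, at 64.4 against 579.

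Ligands were lower more often than higher at pre-puberty, with 9 lower and 5 higher of 20 growth factors (median -0.92). Areg, the epidermal growth factor ligand through which oestrogen acts on ductal growth, had no read in any kept pre-pubertal cell and 717 CPM at puberty, where 71.4% of cells had it. Against the limit of 3 reads it was at least 9721-fold lower at pre-puberty. Nrg1 had 32.2 CPM against 640.5 and Ptn 402 against 2062, whereas Pdgfa (104 against 17.6) and Hbegf (283 against 109) were on the side of pre-puberty. Ras and MAP kinase genes had 10 higher and 5 lower of 38, led by Spry2, a feedback inhibitor of the pathway, with 2071 CPM against 341. Nuclear hormone receptors had 8 higher and 6 lower of 24. Rxrg had 182 CPM against a single read, Nr2f2 546 against 20.3 and Nr4a2 515 against 33.0. The receptors of oestrogen and progesterone, named here after their values were seen, were on the other side: Esr1 had 5.38 CPM against 52.5, and Pgr 0.0246 against 81.0.

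Respiratory chain genes were lower at pre-puberty across many members by small amounts. Of 67 nuclear-encoded respiratory chain genes, which code for the machinery that makes ATP with oxygen, 26 were lower and none higher, and the median log2 ratio was -0.74. The direction was shared widely: 6 members (8.96%) had any excess at pre-puberty, against 46.4% of all genes tested. The class sum ran from 4478 to 23442 CPM per cell at pre-puberty (median 8927) and from 3882 to 44511 CPM at puberty (median 19620), with 3 of 116 pre-pubertal cells above the pubertal median. Ndufa4 (Entrez 17992; chromosome 6, 11900372 to 11907450), a small subunit of the chain, had 190.0 CPM (185.8 to 194.3) against 707 (701 to 714). Uqcrb had 58.5 against 345 and the ATP synthase subunit Atp5j 244 against 885. The 15 mitochondrial genes, which were kept out of the CPM, moved with this class: 11 were lower at pre-puberty and none higher as a share of all reads. The part of the mitochondrial share in the result was not tested.

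Glycolysis genes, which break down glucose, had 9 of 18 lower and 1 higher (median -1.01). Aldoa had 243 CPM against 843, Pkm 102 against 316, and Pfkfb2, a regulator of the pathway's flux, 82.0 against 294. Tricarboxylic acid cycle genes had 5 lower and 2 higher of 27 (median -0.40), with Fh1 at 45.2 CPM against 241. Fatty acid oxidation was similar, at 3 lower and 2 higher of 21 (median -0.48). The shares lower in these 2 classes, 18.5% and 14.3%, were below the 24% of all genes tested, so neither was lower by 2-fold more often than other genes. Glutathione, peroxide and metallothionein genes, which handle oxidants and metals, had 18 of 39 lower and 5 higher (median -0.88). Mgst1 had 57.4 CPM against 629, Txnrd1 74.5 against 311 and the metallothionein Mt1 1063 against 4732, whereas Gpx8, a peroxidase of the endoplasmic reticulum, had 307 against 78.5.

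Cholesterol synthesis was the metabolic class that leaned the other way, with 8 of 23 higher and none lower (median 0.60). Hmgcs1, which makes the precursor of mevalonate, had 882 CPM against 255, with pre-pubertal cells from 0 to 5714 CPM (median 490.1) and pubertal cells from 0 to 7714 CPM (median 3.57). Fatty acid and triglyceride genes parted, with Scd2 at 265 CPM against 46.7 and Lpin2 at 26.6 against 159. Sphingolipid and galactolipid genes had 4 higher and 5 lower of 24. The promoter of Hmgcs1 is shown because its class also shared a sequence feature that the choice of members did not use. Of the 18 cholesterol genes tested that have an entry among the RefSeq promoters of GRCm38.p6, 16 (88.9%) held the CCAAT box. The box was read as CCAAT or its complement ATTGG on either strand, in a window of 250 bases before to 50 after the start. A gene counted as holding it if any of its promoters did. The share was 43.0% of all genes tested with an entry and 41.1% of all 27025 genes with an entry. The window of Hmgcs1 lies on chromosome 13 from 119690101 to 119690400 on the plus strand and holds 4 matches, in capitals.
Hmgcs1: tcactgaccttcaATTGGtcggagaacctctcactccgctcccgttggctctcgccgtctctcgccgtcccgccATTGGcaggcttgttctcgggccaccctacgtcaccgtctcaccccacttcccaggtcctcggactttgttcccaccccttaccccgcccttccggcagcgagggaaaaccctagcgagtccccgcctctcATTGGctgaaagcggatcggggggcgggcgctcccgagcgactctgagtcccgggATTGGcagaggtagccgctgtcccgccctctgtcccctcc
The box was held by 41.1% of the genes higher at pre-puberty and 42.7% of those lower, and a match of letters is no evidence of binding.

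Genes that make and clear proteins were seldom higher at pre-puberty and not lower by 2-fold more often than other genes. Over 9 classes, 23 of 363 members were higher (6.34%) and 74 lower (20.4%). Both shares lay below their backgrounds of 21.4% and 24%, so most differences were smaller than 2-fold, and the median over the members was -0.46 against -0.12 for all genes tested. Proteasome subunits, which degrade proteins, had 14 of 36 lower and none higher (median -0.73). Psma1, a core subunit, had 202 CPM against 737, and the activator subunit Psme1 55.7 against 197. Pre-pubertal cells took 576 to 13333 CPM for the class (median 4033) and pubertal cells 349.8 to 15944 CPM (median 8372), so the ranges overlapped almost fully. Mitochondrial ribosomal proteins had 17 of 72 lower and none higher (median -0.67), and translation factors 8 of 45 lower and 1 higher (median -0.61), with Eef1b2 at 347 CPM against 953. Nucleolar ribosome assembly genes had 7 of 33 lower and none higher, with Npm1 at 298 CPM against 1050. The cytosolic ribosomal protein genes, also kept out of the CPM, had 44 of 81 lower and 1 higher as a share of all reads.

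Folding, secretion and degradation in the endomembrane system differed less. Endoplasmic reticulum folding genes had 3 higher and 3 lower of 27, secretory transport genes 1 and 4 of 46, and cytosolic chaperones 5 and 5 of 34. Within the chaperones, Cryab, a small heat shock protein, had 1060 CPM against 117, and Hspa4 61.1 against 301. Lysosomal genes went both ways near the background shares. Among 48 members, 12 were higher, including the hydrolases Lipa (184 CPM against 28.7) and Ctsc (292 against 51.9), and 10 lower, including the proton pump subunits Atp6v0e (203 against 512), Atp6v1d (73.4 against 229) and Atp6v1a (95.6 against 229).

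Classes of the nucleus differed among themselves. Chromatin regulators had 8 higher and 8 lower of 64 (median 0.12), and cyclin D and cell cycle inhibitor genes 4 and none of 23. DNA replication and mitosis genes had 13 of 40 lower (32.5%) and none higher (median -0.66). Top2a, which untangles replicated DNA, was detected in 25% of pre-pubertal and 38.7% of pubertal cells, but 1 cell held 50.7% of its pre-pubertal reads, so its 245 CPM against 378 rested on few cells. Splicing factors had 5 higher and 14 lower of 55 (median -0.46). The higher members included Qk, which is needed for myelin RNAs, at 4516 CPM against 551, Celf2 at 661 against 122 and Mbnl2 at 459.9 against 184. The lower ones included core snRNP proteins, Snrpe at 35.5 CPM against 143 and Snrpd3 at 39.7 against 106.

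Epithelial transcription factors were lower at pre-puberty, whereas the Sox, Zeb and neural crest list went both ways. Epithelial factors had 17 of 24 lower and none higher (median -1.63), with Sox9 at 56.6 CPM against 1592, Trps1 at 39.3 against 719 and Cited1 at 13.6 against 649. No pre-pubertal cell lay above the pubertal median of 4841 CPM for the class, and the pre-pubertal median was 322. Sox, Zeb and neural crest factors had 15 of 30 higher and 8 lower (26.7%), Sox9 among them, since that gene is on both lists. Their sum was level, at 5775 CPM at pre-puberty and 5947 at puberty, and 55 of 116 pre-pubertal cells lay above the pubertal median. Zeb2, a repressor of epithelial genes that Schwann cells need to myelinate, had 1011 CPM against 55.7, and 80.8% of the pubertal reads were in 1 cell. This class held the Schwann markers Sox2, Sox10 and Foxd3 and the basal marker Snai2, and its median of 1.14 was 0.43 without markers and -0.16 in the 12 pre-pubertal cells up to number 37.

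Tubulins and microtubule-associated genes had 13 of 34 higher and 6 lower (median 0.65), with 113 of 116 pre-pubertal cells above the pubertal median of the class sum. Dpysl2, which promotes axon growth, had 3812 CPM against 537 and Map4 394 against 35.1, while Macf1, which links microtubules to actin, had 183 against 487. Actin and contractile genes had 5 higher and 10 lower of 42. Tmod2, which caps actin filaments in neural cells, had 552 CPM against 0.219, and Myh9, a non-muscle myosin, 401 against 1939 with detection in 99.1% and 100% of cells. Intermediate filament genes had 3 higher and 5 lower of 14, where Vim and the keratins stood on opposite sides.

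Immune and secretory genes were lower at pre-puberty, with 51 of 92 members lower (55.4%) and 16 higher (17.4%). Of 32 milk and secretory defence genes listed, 20 passed the filter, and all 20 were lower, with a median of -4.78. That result rests on the members that passed, most of them through their level at puberty. With no filter on low genes, 23.3% of the 30 members with a value had any excess at pre-puberty, and the median was -3.56. Per cell they summed to between 0 and 19818 CPM at pre-puberty (median 3.86) and between 12.5 and 119711 CPM at puberty (median 7713). Clu, a secreted chaperone, had 47.6 CPM against 1677, Wfdc2 2.61 against 766, and Fgb, a fibrinogen chain, a single read against 1061 CPM. Antigen presentation genes had 9 of 16 lower and 2 higher (median -1.07), with the immunoproteasome subunit Psmb8 at 60.3 CPM against 196. Interferon response genes had 10 in each direction of 32: Irf1 (1077 CPM against 275) and Gbp7 (963 against 177) stood against Iigp1 (21.2 against 531). Among cytokine and complement genes, 12 of 24 were lower and 4 higher, a lean not seen against the pubertal cells with more basal markers. Against those cells 7 of 21 were higher and 4 lower (median 0.37). Against the cells with more luminal markers 7 of 22 were higher and 8 lower (-0.52). Il33, an alarm cytokine of epithelia, had no read at pre-puberty and 1380 CPM at puberty, at least 18723-fold lower, and the complement inhibitor Cd59a had 900 CPM against 93.2. Immune cell markers were at or near 0 at both stages, at 13.3 and 0.965 CPM for the whole list of 11.

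Among all genes outside the marker lists, the largest differences at pre-puberty included Fign, a microtubule-severing protein (943 CPM against 1.20), Nrn1 (367 against 0.468) and Lrrtm4 (438 against 3 reads), which act in neurite growth and synapses, and Fgl2 (894 against 9.50). Those at puberty included Prlr, the prolactin receptor, which had 31.7 CPM at pre-puberty, 98.8% of it in 1 cell, and 2929 CPM at puberty with detection in 91.6% of cells. Mal2, which carries proteins to the apical surface, had 10.6 CPM against 2469. AW112010 had no read at pre-puberty and 3338 CPM at puberty.

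**Figure D3:**
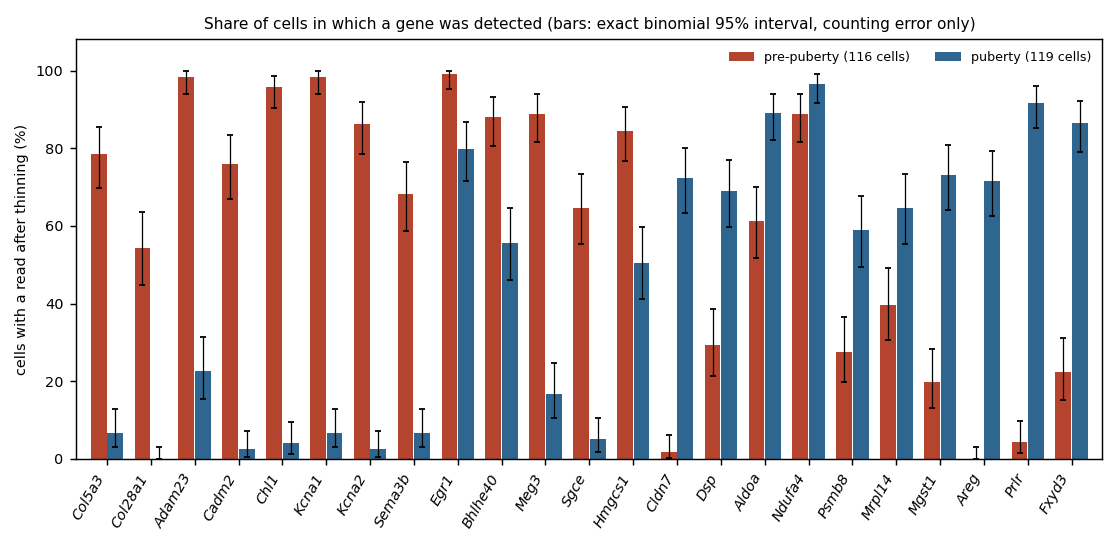
Share of cells with at least 1 read of a named gene after thinning every cell to 100000 reads, with exact binomial 95% intervals (counting error only), for 116 pre-pubertal (red) and 119 pubertal (blue) cells; the genes were picked from the named members of several classes, whose rule used the size of the difference. The rule also asked for a read in at least 50% of thinned cells at the higher stage, so that share was fixed in advance. Adhesion and channel genes on the left reach at most 22.7% of pubertal cells, while Ndufa4 and Egr1 are found in most cells of both stages and differ in level.

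Since the pubertal cells are mixed, each class was also set against 2 kinds of pubertal cell. Among them, 37 had more basal than luminal markers detected, 80 had more luminal than basal, and 2 had equal numbers. Against the basal kind 28.4% of genes tested were higher and 25.2% lower, and against the luminal kind 25.2% and 24%. The same 1613 genes were higher against both and the same 1145 lower against both. Neural-type adhesion molecules stood alike, with 22 of 26 and 22 of 25 higher and medians of 2.41 and 2.70, as did respiratory chain genes (-0.86 and -0.74), proteasome subunits (-0.75 and -0.73), immediate early genes (1.03 and 0.85) and tight junction genes (-2.06 and -2.66). Collagens were less far from the basal kind (1.08) than from the luminal kind (2.86). Matricellular and elastic fibre proteins had larger medians against each kind (1.16 and 1.21) than against all pubertal cells (0.31). Actin and contractile genes, which mark basal cells, turned direction: the median was -0.78 against the basal kind and 0.53 against the luminal kind. Intermediate filament genes turned likewise (-1.11 and 0.40). Interferon genes turned the opposite way (0.40 and -0.67), as did cytokine and complement genes (0.37 and -0.52). Growth factors were lower against the basal kind (-1.53, with Nrg1 at -5.38) and level with the luminal kind (0.04). The kinds were set by markers, some of which are members of these classes, and all 3 comparisons share the pre-pubertal cells.

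**Figure D4:**
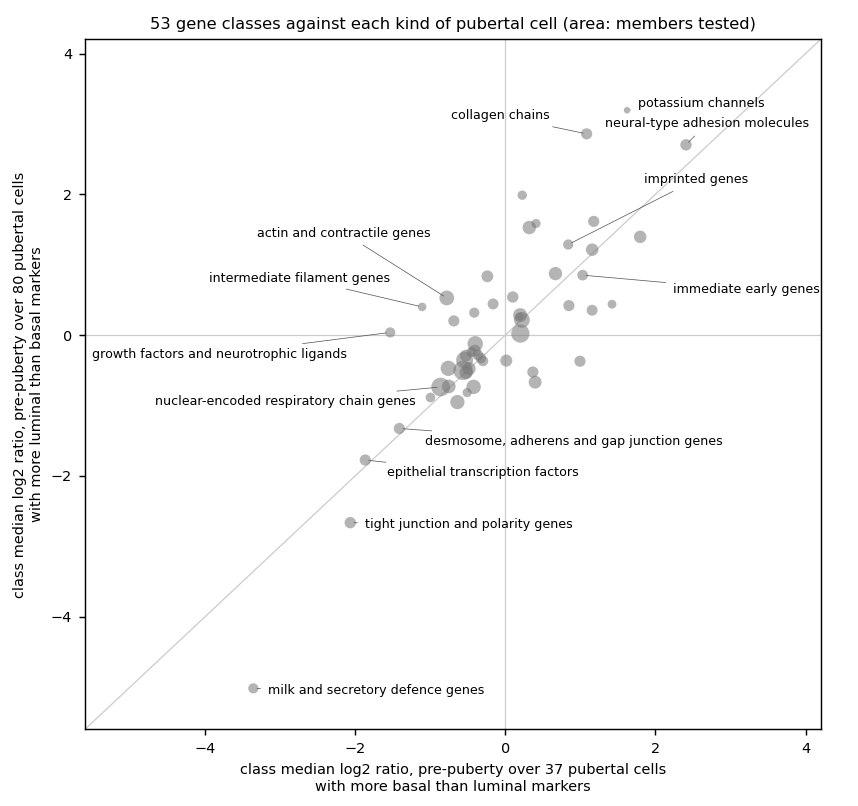
Each point is 1 of 53 gene classes, placed by the median log2 ratio of its members for pre-puberty over the 37 pubertal cells with more basal markers (horizontal) and over the 80 with more luminal markers (vertical); the area grows with the members tested and the line marks equal medians. Respiratory chain (-0.86 and -0.74) and neural-type adhesion (2.41 and 2.70) lie near the line, and actin and contractile genes (-0.78 and 0.53) lie on either side of 0.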

How the data were processed

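Per the study's methods and the submitters' processing notes, the authors mapped read pairs to mm10 with Subread 1.4.6 and assigned them to genes with featureCounts and a RefSeq annotation. The deposited values are whole-number counts of read pairs per gene and cell, not normalised, with a deposited gene length in bases (a length, not a measurement) used here only for RPKM. How reads shared between near-identical genes were counted is not given in the sources used here, so genes with processed pseudogenes (Aldoa, Pkm, Npm1, Eef1b2, Krt18, Ndufa4) are uncertain. No doublet caller was run, since the authors inspected the chambers, and no 2 cells held identical counts. A table of the whole series held the same values and was not used.

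Of 27179 genes, 1904 without a symbol in RefSeq (GRCm38.p6), 15 mitochondrial and 123 ribosomal protein genes were removed, as in the study. The study's likelihood ratio tests over cells were not run, because cells are not replicates and each stage is 1 sample. Counts were summed per stage (40690433 reads at pre-puberty and 68415564 at puberty) and given as CPM with exact Poisson 95% intervals. Shares of cells have exact (Clopper-Pearson) intervals after thinning to 100000 reads. Calls needed 2-fold. The 53 classes, the 12 marker lists and the comparison itself were chosen with earlier results of these data known, and all 1919 class symbols were matched. Named members were up to 3 per class and direction with the largest log2 ratio among those past 2-fold, with 100 CPM or more and a read in at least 50% of thinned cells at the higher stage, or else the member with the largest CPM, plus the 10 largest ratios in each direction outside the marker lists and the 3 highest members of each marker list; other names were added after their values were seen, and some members are not reported here. Only the log2 ratio of the stage sums was tested on simulated data. The class medians, the thinning and the kinds of pubertal cell were not simulated. Alternatives were the scaling (TMM of edgeR 4.0.16), the prior, gene and cell filters, thinning, equal weight per cell, blocks of cells, top cells and marker genes; 2 of them were added after seeing the data. Python 3.11.15, numpy 2.4.6, pandas 2.3.3, scipy 1.17.1 and R 4.3.3 were used.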

Additional observations from a re-analysis of the deposited data

Results flagged for a closer look

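These values lie outside the measurement that the comparison uses. The mitochondrial genes, removed before the CPM were computed, took a median of 10.4% of reads per cell at puberty (range 0.988 to 59.6%) and 3.47% at pre-puberty (1.30 to 14.8%), and 112 of 116 pre-pubertal cells lay below the pubertal median. The ribosomal protein genes took a median of 1.57% at puberty (0.234 to 4.01%) and 0.617% at pre-puberty (0.102 to 2.00%), with 109 of 116 pre-pubertal cells below the pubertal median.

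The cells that failed the coverage filter, 28 at pre-puberty and 17 at puberty, were summed in the same way. Mitochondrial genes took a median of 59.2% of reads in the failed pubertal cells and 5.35% in the failed pre-pubertal cells. The part of this difference in the values below was not tested. The all-gene median log2 ratio of the failed cells was 1.33, far from 0, so a class has to be read against that value. Collagen chains had a median of 2.46 in them, tight junction and polarity genes -2.54 and nuclear-encoded respiratory chain genes -0.59. Against the all-gene median, 37 of 53 classes lay on the same side as in the kept cells, these 3 among them, as did 24 of the 28 classes with a median of at least 0.5 in size there. The other 4 of the 28 lay on the opposite side: DNA replication and mitosis genes (median 2.25, with 22 of 29 higher), proteasome subunits (1.44), immediate early genes (0.83) and circadian clock genes (0.27).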

How the results depend on the processing

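No paired analysis was possible because cell numbers only name cells and each stage is 1 sample. The 2 counts of genes and, for 53 classes, the share of members higher at pre-puberty and the median log2 ratio were recomputed under 13 alternatives. Of 1402 values, 1364 stayed inside the binomial interval of the reported share, the interval of the reported median or, for counts of genes, 1.5-fold of the reported count. Some of them could not move. Another prior cannot change a share of members higher, and leaving out marker genes cannot change a class without them. The tally therefore overstates the stability. Of 28 classes with a median of at least 0.5 in size, 26 kept its sign throughout. Some of these came near 0 in 1 alternative or more: potassium channels (0.04), matrix proteases (0.04), axon guidance (0.06), growth factors (-0.11) and cytokine and complement genes (-0.12). Both classes that changed sign did so in the 12 pre-pubertal cells up to number 37, an alternative added after seeing the data: circadian clock genes (-0.49) and Sox, Zeb and neural crest factors (-0.16). The cause was not tested, but those cells are few and more deeply sequenced, and their all-gene median was -0.56. In them 3962 genes were lower, and medians moved for transforming growth factor genes (-0.78), receptor tyrosine kinases (-1.47), nutrient transporters (-1.01), sphingolipid genes (-1.24), nucleolar genes (-0.99), secretory transport (-0.66), antigen presentation (-1.49) and cytokine and complement genes (-2.28), as did the shares of members higher for respiratory chain (22.4%), mitochondrial ribosomal (31.9%) and proteasome genes (30.6%). In the 104 cells from number 38 on, the clock median was 1.27 and the respiratory chain share 2.99%.

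With a minimum of 50 CPM, 1017 genes were higher and 1114 lower, since fewer genes were tested. The share of members higher was then 100% for neural-type adhesion molecules and potassium channels, 0% for glycolysis and epithelial factors and 5.13% for mitochondrial ribosomal proteins, and medians were -3.53 for tight junction genes, 5.02 for neural-type adhesion molecules and 2.53 for nuclear hormone receptors. With 1 CPM added instead of 5, tight junction genes had -4.02 and neural-type adhesion molecules 4.21. With no filter on low genes, milk and secretory defence genes had a share of 23.3% and a median of -3.56. Matricellular proteins had a share of 71.9% with equal weight per cell, 75% after thinning and 73.1% without the cells that stood apart, against 53.3% as reported. Mitochondrial ribosomal proteins had medians of -0.79 with equal weight and -0.80 after thinning. Without each gene's top cell, 10.8% of replication and mitosis genes and 0% of epithelial factors were higher. Of the 2113 genes reported as higher and the 2368 as lower, 1668 and 1981 stayed past 2-fold without their top cell. Without marker genes, 83.3% of intermediate filament genes were higher. TMM scaling moved the all-gene median to -0.05 and no class.

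There were 309 other values, log2 ratios of single named genes and counts of class members past the 2-fold line. Over all alternatives, 208 of their 3814 recomputed values were counted as moved, 70 of them in cells up to number 37 and 37 with a minimum of 50 CPM. A further 5 ratios turned direction: in cells up to number 37, Myf5 (-0.25), Cd68 (-0.12), Robo1 (0.050) and Fads1 (-0.61), and without the cells that stood apart, Dcn (0.69). Depth limited low genes most, since 3 reads are 0.0737 CPM at pre-puberty and 0.0438 CPM at puberty.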
